A study of Drosophila melanogaster with 4 samples.

Results

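The Pipsqueak peaks on the X chromosome of Drosophila melanogaster were taken from the authors' peak list as every row placed on X, which gave 305 of the 1661 peaks in the list. The list came from chromatin immunoprecipitation followed by sequencing (ChIP-seq), in which chromatin fragments bound by a protein are pulled down with an antibody and sequenced beside total chromatin (input). There were 2 libraries made with KW3-psq-D2, a rabbit polyclonal antibody raised against a Pipsqueak peptide, and 2 input libraries. All 4 came from white prepupae, animals that have just stopped crawling and entered metamorphosis, and no treatment is named. The labels name neither a tissue nor the sex of the animals. The antibody and input groups share the strain Y cn bw sp. Its X carries oc[R3.2] and y[1]. Listed for the second chromosome are Gr22d[1], Gr22b[1], CG33964[R4.2], cn[1], sp[1] and bw[1], and for the third Rh6[1], GstD5[1], MstProx[1], lab[R4.2] and LysC[1].

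Pipsqueak is a nuclear protein with a BTB domain, through which such proteins associate with each other, and a DNA-binding domain of repeated Psq motifs that recognises GAGA sequences. It shares this recognition with the GAGA factor encoded by Trithorax-like, and has been linked to Polycomb group silencing complexes. Male flies carry fewer copies of the X than females, and in males X genes are transcribed at a raised rate by the dosage compensation machinery. Because the sex of the animals is not named, the number of X copies per set of autosomes in the chromatin is unknown, and its part in any difference between X and the autosomes was not tested.

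Each peak has a first base, a last base and a score, which is the value the authors' peak caller gave it. The file does not name the quantity behind the score, so it was used to rank and describe peaks within the list. The list has no column for a library, so no spread between replicates can be given, and depth is unknown. Peaks close together are not independent units, so no p-value was computed, and X is set beside the autosomal arms 2L, 3L and 3R by values with intervals. These intervals are exact 95% binomial ones for shares and order-statistic ones for medians, and they cover the number of peaks only. Positions are on FlyBase release 5. No genome sequence or annotation of that release was used here, so peaks are identified by position and neither the genes nor the GAGA elements under them were analysed here.

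The X peaks covered 216.5 kb in all, 1.07% of the 20.3 Mb from the first peak base at 580514 to the last at 20907077. The median width was 460 bp, the middle 50% lay between 275 and 813 bp, and the range was 201 to 4391 bp. Scores ran from 6.45 to 157, with a median of 14.7 and the middle 50% between 10.1 and 25.3. Wide X peaks had the high scores (Spearman's rho = 0.80 across 305 peaks, a description, since both values come from the same caller). A peak is called strong below when its score was above 26.3, the upper quartile of the 1248 peaks on X, 2L, 3L and 3R. By this measure 71 X peaks were strong, 23.3% (18.7 to 28.4), against 21.1% on 2L, 23.3% on 3L and 29.1% on 3R.

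The strongest Pipsqueak site on X was a peak of 1894 bp at 11047868 to 11049761 that scored 157. It was flanked by a peak 87 bp before it and another 118 bp after it, and ranked 10 among the peaks of the 4 arms. Next came a peak of 3798 bp at 17601654 to 17605451, which scored 139, and a peak of 2400 bp at 3673080 to 3675479, which scored 134. These 3 sites are spread over the chromosome, near its middle, in its centromere-proximal part and in its distal part.

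Among the 10 highest scores, 3 belonged to lone peaks with no other peak within 10 kb. The lone peak at 11607190 to 11611286 was 4097 bp wide and scored 115. A lone peak at 4829845 to 4832164 was 2320 bp wide and scored 109.6, and that at 8452632 to 8454482 was 1851 bp wide and scored 87.5. The nearest peaks to these 3 were 26.4, 23.6 and 39.9 kb away. High scores on X were therefore found both in isolation and inside large groups.

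The other 4 of the 10 had close neighbours. The peak at 12468421 to 12470917, with a score of 96.0 and a width of 2497 bp, led a group of 6 peaks that covered 80.3% of 7.14 kb. The peak at 1905905 to 1907994, with a score of 95.2 and a width of 2090 bp, lay 114 bp beyond a second strong peak, at 1903211 to 1905790 with a score of 85.2. The peak at 5811652 to 5813332 scored 92.1 and had a neighbour 63 bp away, and that at 13177289 to 13180158 scored 89.0 and had 1 at 72 bp. The 10 peaks were 1681 to 4097 bp wide and lay in 9 different 1 Mb bins, so the highest scores were not gathered in a small part of X.

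Width and score did not single out the same peaks at the very top, since 3 of the 10 highest scores were also among the 10 greatest widths. The widest X peak, at 16315981 to 16320371, was 4391 bp wide and ranked 13 by score, with 82.2. It opened a run of 3 peaks that covered 96.1% of 6.18 kb, and nothing was called for 534.7 kb before it. The next widest were the peaks of 4097 and 3798 bp above. They were followed by a peak of 3703 bp at 13645928 to 13649630 (score 61.3) and by a peak of 3354 bp at 4975556 to 4978909 (score 67.6). At the other end, 14 X peaks had the lowest width in the list, 201 bp, and the first of them along X was at 2017941 to 2018141, with a score of 13.4. The lowest X score, 6.45, belonged to another of these, at 12471585 to 12471785, which lay 667 bp beyond the strong peak of 96.0.

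**Figure D1:**
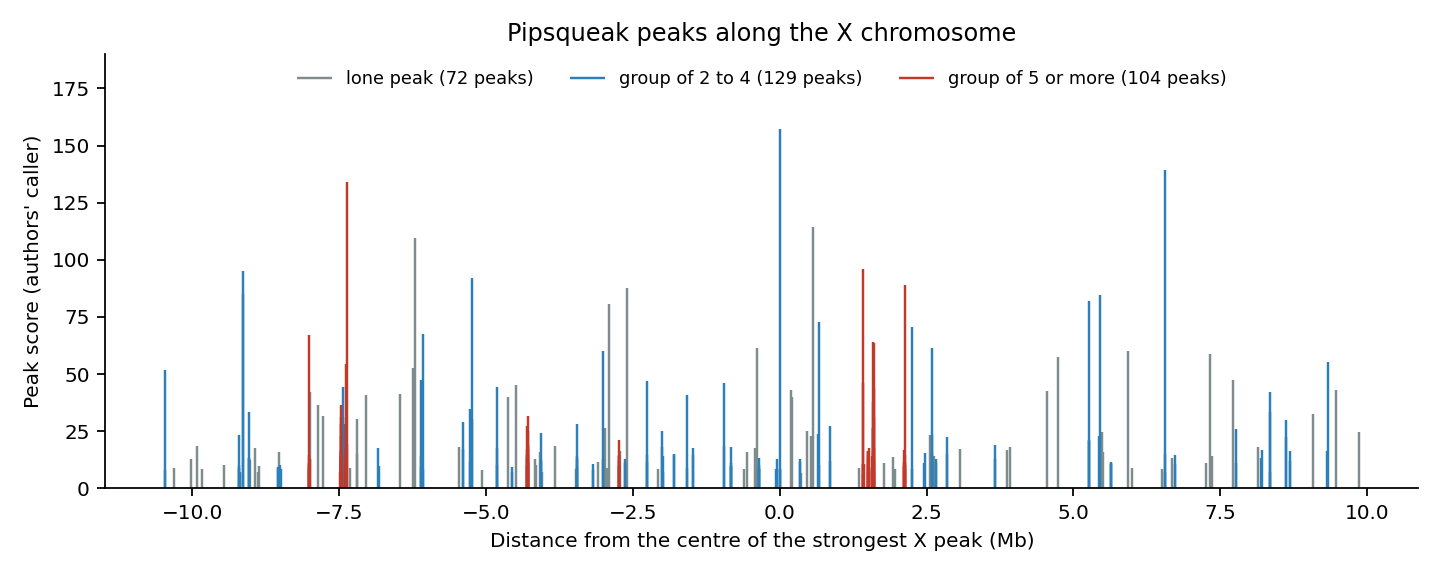
Each vertical line is 1 of the 305 X peaks, placed by its distance in Mb from the centre of the strongest X peak, with its height giving the authors' score; colour gives the number of peaks in its group when peaks 10 kb or less apart are joined. The highest lines, with scores of 157, 139 and 134, stand far apart, and red lines crowd around the third of them.

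X carried 22 peaks with scores of 60 or more, and these occurred in 20 groups, of which 5 were lone peaks. They lay between 1903211 and 17605451, were 1293 to 4391 bp wide, with a median of 2261 bp, and fell in 11 of the 21 bins of 1 Mb, with at most 3 in a bin. Of the 22, 15 had another peak within 1 kb (68.2%, 45.1 to 86.1), and the 19 such neighbours that themselves scored under 60 had a median score of 11.1, a median width of 311 bp and a range of scores from 6.45 to 43.8. These neighbours were thus mostly small and low-scoring, beside a median score of 14.7 for all X peaks, though the limit of 60 kept high scores out beforehand. On 2L, 3L and 3R the share of peaks of 60 or more with a neighbour within 1 kb was 76.5%, 48.5% and 54.5%, with median neighbour scores of 12.6, 10.7 and 12.5. The X share lay between those of 2L and 3R, within wide intervals.

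Peaks on X were joined into groups wherever 10 kb or less parted them. This gave 133 groups: 72 lone peaks, 33 pairs, 13 of 3, 6 of 4 and 9 of 5 or more. The 9 largest held 104 peaks, 34.1% of those on X (28.8 to 39.7), and 31.3% of the covered sequence. Their peaks had a median score of 13.4 and a median width of 412 bp, against 17.4 and 498 bp for the lone peaks, and 16.3% of them were strong, against 31.9% of the lone peaks. Groups of 2 to 4 stood between in strong peaks, with 24.0% strong and a median score of 14.2. These values are per peak and include the weaker neighbours of each group's strongest peak. By the strongest peak of each group the order was reversed. Its median score was 64.1 in the 9 largest groups, 27.8 in groups of 2 to 4 and 17.4 for lone peaks. A highest score tends to rise with the number of peaks in any case. On 2L, 3L and 3R too, a smaller share of peaks was strong in groups of 5 or more than among lone peaks. Of the 9 largest groups on X, 2 held no strong peak.

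The distal X held the greatest concentration. From 3567758 to 3676173, a stretch of 108.4 kb, there were 45 peaks in 4 groups, 14.8% of all X peaks in 0.533% of the span. Peaks covered 23.2% of this stretch, and 9 of the 45 were strong. It starts with the X group of the most peaks, 22, and ends with the second largest, of 16. These 2 were built differently. In the first, 3567758 to 3589884, no peak passed a score of 36.7 (1117 bp wide, at 3579328 to 3580444). The next highest scores there were 31.0 and 28.4, the median was 13.0, and 45.4% of 22.1 kb was covered, with 4 of the 21 gaps longer than 1 kb. In the second, 3663097 to 3676173, the peak of 134 stood near the proximal end, followed in rank by 54.6 (2022 bp, at 3666324 to 3668345) and 27.8. All 15 gaps of this group were 705 bp or shorter, with a median of 80 bp, so it formed 1 nearly continuous region with 79.2% of 13.1 kb covered. Between these 2 groups lay a group of 3 peaks at 3612407 to 3616755, with a highest score of 44.4, and a group of 4 at 3636047 to 3638984, with a highest score of 28.4.

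Proximal to the midpoint of the span X held 3 further groups of 8 or more peaks, all within 632 kb. The group of 15 peaks at 12628237 to 12655796 had 2 centres of nearly equal score, 64.1 at 12628894 to 12630737 and 63.4 at 12645534 to 12647415, the second with a peak of 43.8 beside it. It was the longest of the named groups, 27.6 kb, and had the highest median score among them, 17.6, with 5 strong peaks. At 59.8 kb before it, the group of 10 peaks at 12548213 to 12568470 held no strong peak at all: its highest score was 17.6, its median 11.7, and 24.9% of its 20.3 kb was covered. The group of 9 peaks at 13169114 to 13180442 was the opposite in form, with 1 dominant peak of 89.0 and a second highest score of 16.8, a ratio of 5.31. Its strongest peak lay at 84.8% of the way along the group. In the groups of 22, 16, 15, 13 and 10 this position was 54.8%, 85.5%, 5.73%, 61.1% and 79.6%, so the strongest peak had no common place within the groups.

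The sixth group of 8 or more, 13 peaks at 6747334 to 6763019, was made of moderate peaks packed closely. Its highest score was 31.6 (955 bp, at 6756440 to 6757394), its second 27.3 and its median 14.7, and 63.3% of its 15.7 kb was covered. Joining its peaks at 1 kb or less gave the longest such region on X, 13.5 kb with 12 peaks from 6749471 to 6763019, longer than the 13.1 kb region that holds the peak of 134. Of these 2 regions, the longer had the lower highest score.

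**Figure D2:**
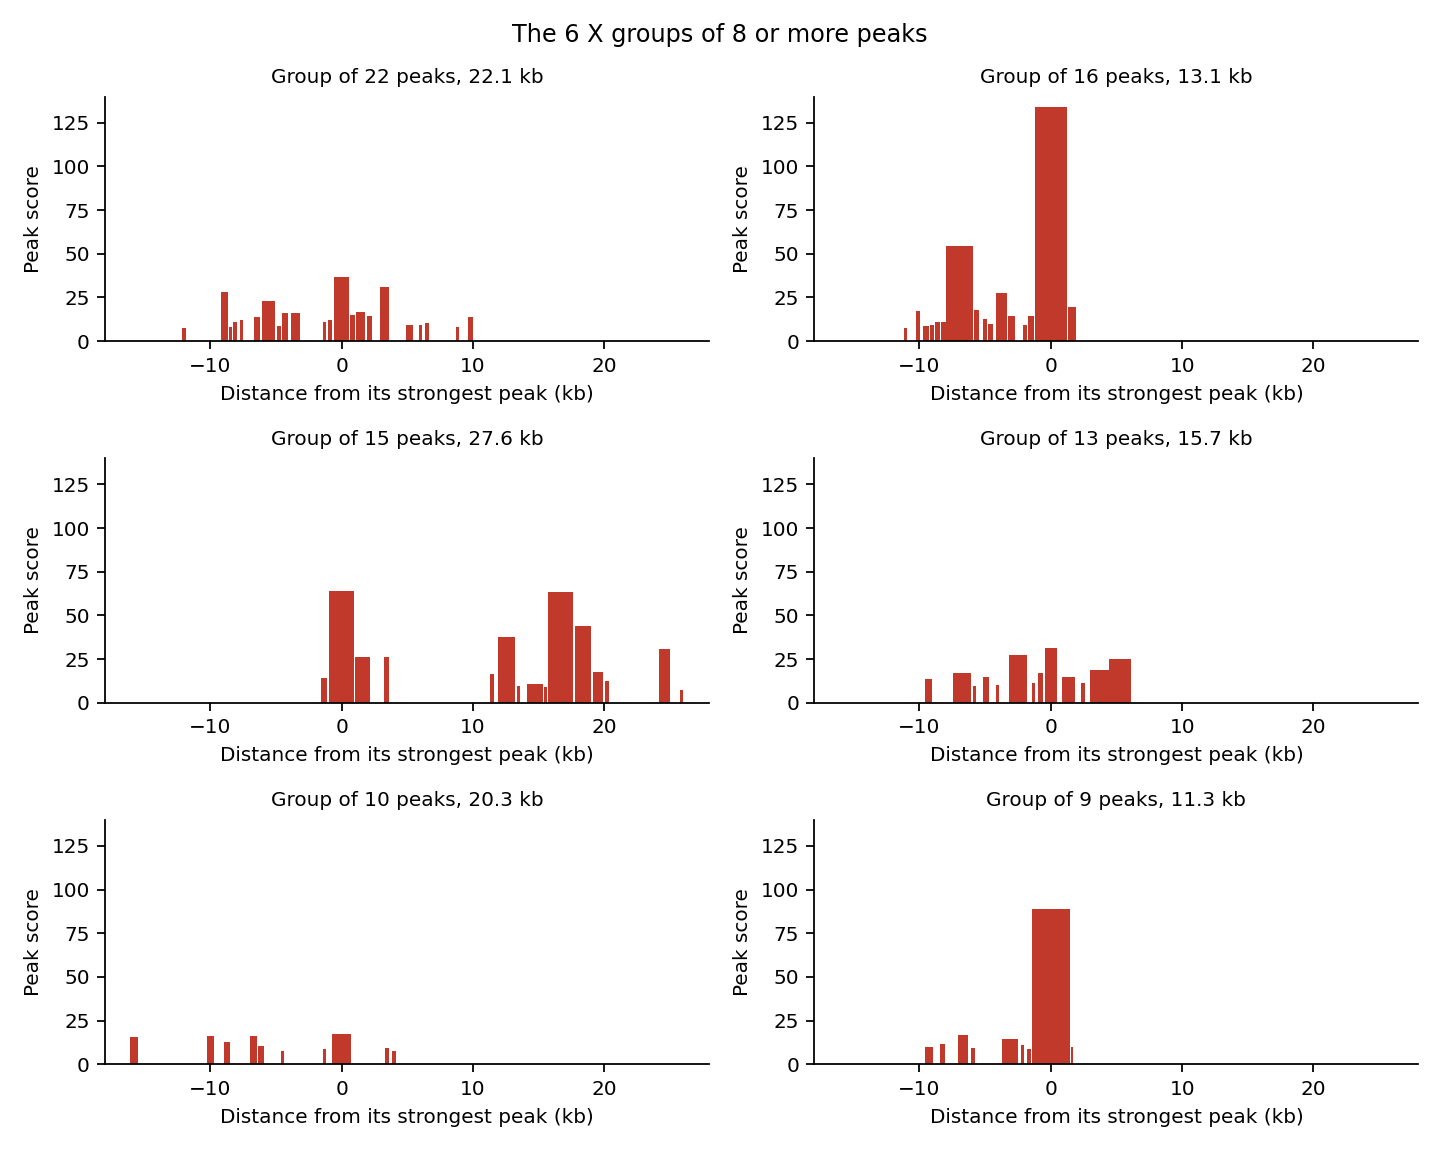
Each panel is 1 of the 6 X groups with 8 or more peaks; bars span each peak from its first to its last base, placed by distance in kb from the centre of the group's strongest peak, and their height is the peak score from 0. The groups of 16 and 9 peaks each have 1 dominant bar, with scores of 134 and 89.0, that of 15 has 2 of nearly equal height, and those of 22, 13 and 10 have none above 36.7.

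Counted in bins of 1 Mb from base 1, X peaks were present in all 21 bins but concentrated in a few. Strong peaks were unevenly spread too, with 14 of the 71 in the bin from 3 to 4 Mb. The bin from 3 to 4 Mb held 58 peaks, that from 12 to 13 Mb held 34 and that from 6 to 7 Mb held 26, while the median bin held 11 and the emptiest, from 15 to 16 Mb, held 2. Counted as groups, the bins held 2 to 11, with a median of 6. The 3 to 4 Mb bin held 11 groups, the 6 to 7 Mb bin 9 and the 12 to 13 Mb bin 6. At least 1 strong peak was present in 20 of the 21 bins. The bin from 14 to 15 Mb held none, and both peaks of the bin from 15 to 16 Mb were strong, with the higher at 57.3.

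The proximal end of X, nearest the centromere, was the sparsest. Dividing the span into 4 equal parts from the distal end gave 98, 84, 83 and 40 peaks, and 37, 39, 32 and 25 groups. The last part, from 15825437 to 20907077, had 12 strong peaks among its 40, a median score of 17.4 and a median width of 536 bp. The first part had 25 strong peaks among its 98, a median score of 13.6 and a median width of 420.5 bp. The most proximal part thus held fewer peaks with a higher median score. Beyond the peak of 139, whose last base is 17605451, no X peak reached a score of 60.

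Peak-free sequence made up most of X. Of the 304 gaps between adjacent X peaks, 67 were longer than 100 kb and together took 83.5% of the span. The longest, from 14970472 to 15606638, was 636.2 kb and lay between a peak of 17.9 and a peak of 42.6. The second, 606.0 kb from 14112892 to 14718937, was bounded by scores of 17.2 and 12.6. The third, 604.5 kb from 4978910 to 5583385, followed directly on the fifth widest X peak. With the fourth, 534.7 kb from 15781266 to 16315980, which ends at the widest X peak, 3 of the 4 longest lay between 14.1 and 16.3 Mb. Of these 4 stretches, 2 thus began or ended at 1 of the 5 widest peaks.

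The next 6 were of like length. They ran for 523.5 kb from 9579327 to 10102802, for 522.2 kb from 17781548 to 18303747, for 497.1 kb from 17054466 to 17551533 and for 492.2 kb from 11913127 to 12405280. The ninth, 476.2 kb from 2552800 to 3029032, ended at a group of 7 peaks, and the tenth was 382.6 kb from 19745546 to 20128166. The 10 stretches added up to 26.0% of the span, and 7 of them lay beyond its midpoint at 10743795, on the proximal side. Of the 20 peaks bounding them, 6 were strong and 10 were lone. Before the first X peak there was a further 580.5 kb with no call. The length of X beyond its last peak base, 20907077, was not at hand, so a longer peak-free end there remains possible. Whether sequence that cannot be mapped uniquely adds to these stretches was not tested.

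When strong peaks alone are considered, the barest part of X ran for 1957 kb from 13649631 to 15606638, between a score of 61.3 and a score of 42.6. It contained 10 peaks, none above 22.3. This stretch takes in both of the longest peak-free ones.

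Beside the autosomes, X had the shortest longest gap between adjacent peaks. Sequence before the first and after the last peak of an arm is not counted, since arm lengths were not at hand. The greatest such gap was 1160 kb on 2L, 1152 kb on 3L and 994.5 kb on 3R, against 636.2 kb on X. Stretches over 200 kb took 59.4% of the span on X, 72.7% on 2L, 61.6% on 3L and 68.4% on 3R. X also had the largest share of short gaps: 42.8% were 1 kb or less (37.1 to 48.5), against 33.6% on 2L, 37.3% on 3L and 40.1% on 3R, and without the 108.4 kb stretch around the 2 largest groups the X share was 35.9% (30.1 to 42.1). Gaps over 1 and up to 10 kb made up 13.8% on X (10.1 to 18.2), against 18.6%, 18.5% and 18.2%. The median gap was 3289 bp on X, 7676 bp on 2L, 4274 bp on 3L and 3303 bp on 3R. This place of X, like its share of short gaps, changed without the 108.4 kb stretch. Its median gap was then 8491 bp, the longest of the 4. Nothing was taken from the other arms, whose densest stretches stayed in, so these ranks do not compare like with like.

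**Figure D3:**
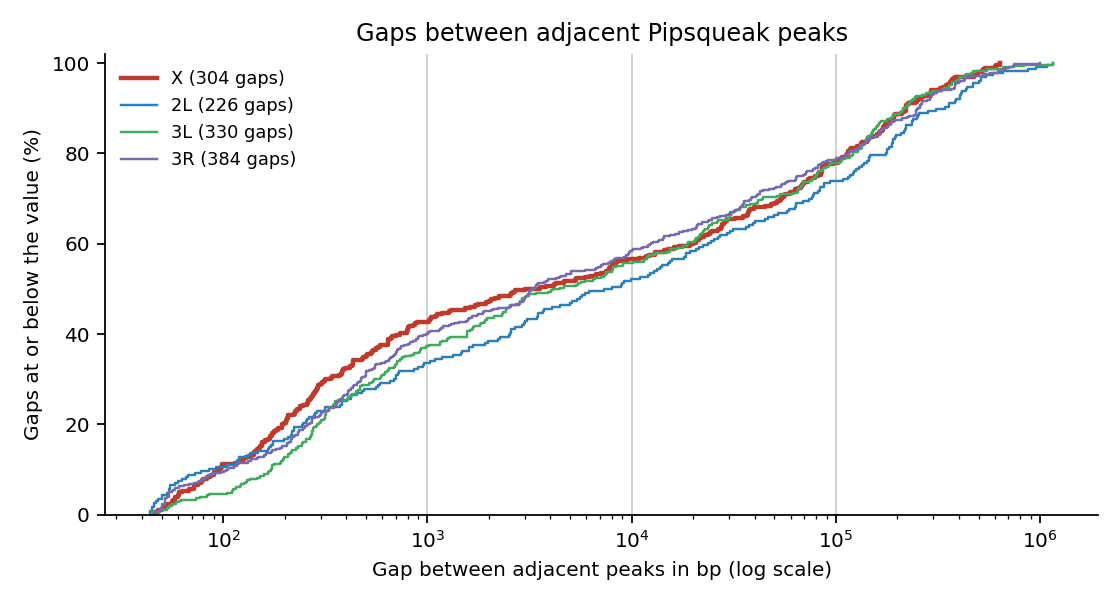
The lines give, for X and 3 autosomal arms, the percent of gaps between adjacent peaks at or below each length in bp (log axis); grey lines mark 1, 10 and 100 kb. The X line is highest at 1 kb, at 42.8%, and ends furthest left, at 636.2 kb.

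Peak density on X was 15.0 per Mb of its span, against 10.4 on 2L, 14.5 on 3L and 13.9 on 3R. Its interval, from the number of X peaks alone, was 13.4 to 16.8 and held the values of 3L and 3R. The span leaves out the arm ends beyond the outermost peaks, so the order over whole arms may differ. The first place of X also rested on grouped peaks. Regions were made by joining peaks across gaps of up to 1 kb. Their densities were 8.61 per Mb on X, 6.95 on 2L, 9.11 on 3L and 8.35 on 3R. Without the 45 peaks of the 108.4 kb stretch, X had 12.8 peaks per Mb, below 3L and 3R, from which no such stretch was taken. Lone peaks were 23.6% of the peaks on X, 22.9% on 2L, 23.9% on 3L and 24.2% on 3R. The share in groups of 5 or more was 34.1% on X and 34.7% on 3L, higher on 3R at 41.3% and lower on 2L at 20.3%. The place of X in this order depended on the setting. Among peaks with scores above the 4-arm median of 14.1 its share was the highest, at 21.7% against 9.09% on 2L, 11.7% on 3L and 17.9% on 3R. With joining at 5 kb it was 31.8%, above 3L at 27.5% and below 3R at 37.4%. The group of 22 on X was larger than any on the 3 autosomal arms, where the largest held 8 on 2L, 17 on 3L and 19 on 3R.

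**Figure D4:**
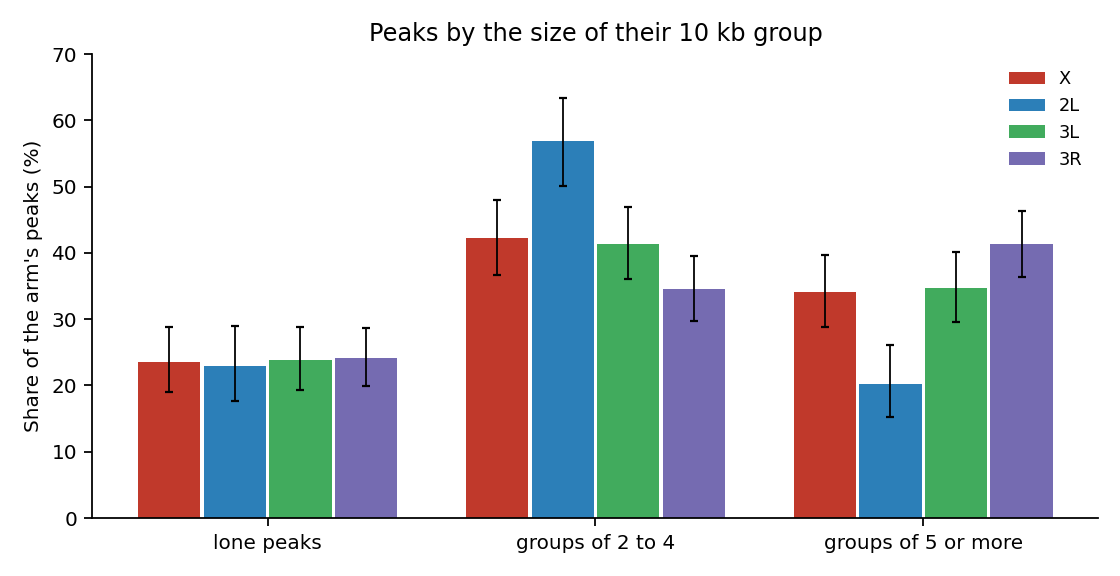
Bars give the share of each arm's peaks that were lone, in groups of 2 to 4 or in groups of 5 or more, with exact 95% binomial intervals that take peaks as independent. Lone peaks make up 22.9% to 24.2% on all 4 arms, and the share in groups of 5 or more is lowest on 2L, at 20.3%, with X at 34.1%.

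Typical scores and widths on X were close to those of the autosomal arms. The median score was 14.7 on X (13.0 to 15.5), 13.6 on 2L, 13.8 on 3L and 13.8 on 3R, and each of these lay in the X interval. The median width was 460 bp on X (401 to 514), 413 bp on 2L, 411 bp on 3L and 430 bp on 3R, again all in the X interval. Because wide peaks score highly, widths were also set side by side within bands of score. Below 10 the median width was 246 bp on X (224 to 273), and 259.5, 233.5 and 261.5 bp on 2L, 3L and 3R. From 10 to below 15 it was 376 bp on X (326 to 426), and 329, 321 and 327 bp, of which the 3L value lay outside the X interval. From 15 to below 30 it was 595.5 bp on X (541 to 681), and 626, 545.5 and 651 bp. From 30 to below 60 it was 1143 bp on X (955 to 1274), and 1007, 1084 and 1051 bp. At 60 or more it was 2261 bp on X (1851 to 2870), and 2005, 1979 and 1978 bp. Scores were less alike in this band, which has no upper limit. Their median was 84.8 on X, and 95.2, 104 and 97.5 on 2L, 3L and 3R. X had the widest median in 3 of the 5 bands.

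At the top of the range the X values were the lowest of the 4 arms, a difference that was not tested. The 90th percentile of scores was 47.5 on X, 50.6 on 2L, 57.3 on 3L and 64.5 on 3R, and the highest score was 157 on X, 206 on 2L, 206 on 3L and 179 on 3R. Scores of 100 or more were reached by 5 X peaks, 1.64% (0.534 to 3.78), against 3.52% on 2L (1.53 to 6.83), 5.14% on 3L (3.02 to 8.10) and 5.45% on 3R (3.41 to 8.22). Counted over groups, 5 of the 133 X groups had such a peak, 3.76% (1.23 to 8.56), against 7.34% on 2L (3.22 to 14.0), 11.6% on 3L (6.88 to 17.9) and 13.0% on 3R (8.26 to 19.2). For peaks and for groups, the 2L share lay in the X interval and the 3L and 3R shares lay above it. The intervals themselves overlap that of X on each arm, which does not measure a difference. Scores of 60 or more made up 7.21% of X peaks (4.58 to 10.7) and 7.49%, 9.97% and 11.4% on 2L, 3L and 3R. For scores from 30 to below 60 the order was otherwise, with 13.8% on X (10.1 to 18.2), 9.25% on 2L, 9.97% on 3L and 12.2% on 3R.

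**Figure D5:**
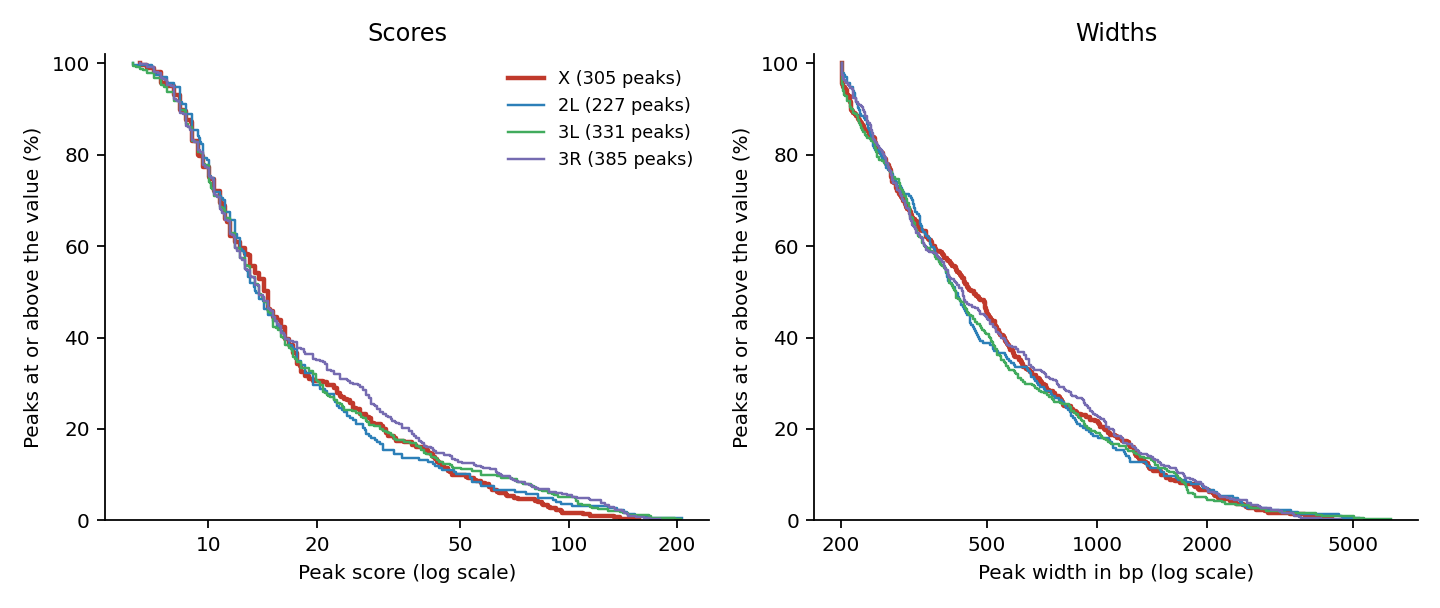
For each arm the lines give the percent of peaks at or above each score (left) and each width in bp (right), on log axes. The 4 lines run together over most of their course. In the score panel the X line is the lowest at 60, where it stands at 7.21%, and at 100, where it stands at 1.64%.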

How the data were processed

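The series holds 2 antibody and 2 input libraries, grouped and numbered by their titles, and 1 peak list for all of them. Versions 1.7.0.3 and 1.7.0.2 of CASAVA, the aligner BWA and the peak caller MACS2 are named in the submitters' processing notes, with the build BDGP5. The settings used, and any pooling of replicates, were not given in the sources used here. Positions in the deposited list are on FlyBase release 5 per the file headers, counted from 1, and each peak's score is as the authors' caller wrote it.

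Gaps are the bases between adjacent peaks. Groups join peaks 10 kb or less apart, and regions 1 kb or less. The span runs from the first to the last peak base of an arm, since arm lengths were not at hand. Shares have exact (Clopper-Pearson) 95% intervals and medians have order-statistic intervals from the binomial law. Joining recovered all groups and the longest gap in 200 of 200 simulated lists, and the median interval held the true value in 96.2% of 2000 simulated sets of 305 values. Python 3.11.15, numpy 2.4.6, scipy 1.17.1, pandas 2.3.3 and matplotlib 3.10.9 were used.

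The rule for named regions took the 10 highest scores, the 5 widest peaks, the narrowest and lowest-scoring peaks, groups of 8 or more peaks, the 10 longest gaps and the 3 fullest and the emptiest 1 Mb bins. Other peaks and groups, and the 108.4 kb stretch, were chosen after their values were seen. The members and this rule were chosen with earlier results of these data known. Alternatives were stricter scores, joined peaks, other joining distances and leaving out the largest groups. The gene table at hand is of release 6, so genes, motifs and sequences are not analysed here, including the motif share planned for a release 5 genome.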

Additional observations from a re-analysis of the deposited data

How the results depend on the processing

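No paired analysis was possible because replicates are not named in the deposited file, which also means that none could be left out. Of 24 alternatives, 10 kept the X value within its interval, a count within 1.5 times, or the longest gap at exactly its length. Keeping fewer peaks or joining them lowers the density in any case, so this tally is a description only. With scores above the 4-arm median (14.1), X density was 7.92 per Mb, the share in groups of 5 or more was 21.7% (9.09%, 11.7% and 17.9% on 2L, 3L and 3R) and the longest gap 710.2 kb. With strong peaks alone (above 26.3) X density was 3.49 per Mb, against 2.21 on 2L, 3.37 on 3L and 4.05 on 3R. On X 58 groups were left. On each of the 4 arms 0% of the strong peaks, on X 0 of 71, were in groups of 5 or more. The longest gap was 1957 kb on X, against 2577 kb on 2L, 1195 kb on 3L and 2033 kb on 3R. Here fewer peaks enter by construction. With peaks 1 kb or less apart joined, density was 8.61 per Mb, the median score 17.6 (21.3 on 3R) and the median width 737 bp (853 bp on 3R). The strongest peaks of the 133 groups had a median score of 22.8 (19.5, 25.1 and 28.4 on 2L, 3L and 3R) and a median width of 620 bp (656, 637 and 746 bp). Thus the first place of X in median score and width held for peaks as called and without the largest X group, not for joined units. Without the 108.4 kb stretch, an alternative chosen after seeing the data like the density without the largest group, density was 12.8 per Mb and the share in groups of 5 or more 25.4%. In both alternatives only X peaks were left out. Without read counts, weak and absent binding cannot be told apart.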
